A study of Mus musculus with 4 samples.

Results

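Members of the interferon-inducible GTPase families, and the interferon-inducible noncoding RNA AW112010, were followed in RNA-seq values from cultured mouse peritoneal macrophages. The 10 genes were taken by symbol from the deposited table of 23735 loci. They are 4 guanylate-binding proteins (Gbp2, Gbp3, Gbp5 and Gbp7), 5 immunity-related GTPases (Igtp, Irgm1, Irgm2, Iigp1 and Ifi47) and AW112010. All 10 were found. They were chosen with the values of this same comparison known, so their values are a description, and no test of them is offered as support.

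There were 2 groups of 2 libraries. The Ch25h_KO libraries came from C57BL/6 mice labelled ApoE-/-/Ch25h-/-, and the Ch25h_WT libraries from C57BL/6 mice labelled ApoE-/-/Ch25h+/+, so both groups carry the label of a loss of apolipoprotein E. The mice were 6 weeks old and received 3% thioglycolate, a sterile irritant that draws macrophages into the peritoneal cavity, 3 days before collection, and the cells were then cultured in serum-containing medium. No infection and no added interferon is named in the labels. The series counts 12 mice per group and biological duplicates without saying how the mice were divided among libraries, so the spread between libraries may be partly technical, and n = 2 libraries stands behind each mean ± SD. Values are FPKM, which scale the fragments of a gene by its length and by the depth of the library, so that levels can be compared between genes.

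Ch25h encodes the enzyme that makes 25-hydroxycholesterol and is itself induced by interferons. It stood at 4.25 and 5.53 FPKM in the Ch25h_KO libraries, against 63.3 and 65.3 FPKM in the Ch25h_WT libraries, so the lower group is the one labelled as lacking it (log2 difference -3.48, limma adjusted p = 0.0031). Apoe stood at 3683 and 3373 FPKM in the Ch25h_KO libraries, against 614 and 610 FPKM in the Ch25h_WT libraries, although all 4 libraries are labelled ApoE-/-, so the groups also differ at Apoe (log2 difference 2.52, SE 0.066, limma adjusted p = 0.0013). Depth was about 1.04e+07 and 9.70e+06 fragments in the Ch25h_KO libraries and 1.26e+07 and 1.01e+07 fragments in the Ch25h_WT libraries, estimated from the smallest steps between low values. Macrophage markers were high in all libraries, with lysozyme (Lyz2) at 20237 and 19566 FPKM in Ch25h_KO and 19741 and 20537 FPKM in Ch25h_WT. The lipopolysaccharide co-receptor gene Cd14 was 6870 and 6751 FPKM in Ch25h_KO and 5178 and 5288 FPKM in Ch25h_WT (limma adjusted p = 0.078). Of 10 listed macrophage markers, 4 were higher and 6 lower by the sign of the difference, with a median of -0.02. Among the lower ones, Emr1 was 381 and 388 FPKM in Ch25h_KO against 418 and 425 FPKM in Ch25h_WT. B cell markers were also present, led by Cd79b and by Cd79a at 114 and 118 FPKM in Ch25h_KO and 127 and 124 FPKM in Ch25h_WT. Of 7 listed B cell markers, 2 were higher and 5 lower by the sign of the difference. Among the higher ones, Blk was 19.5 and 20.4 FPKM in Ch25h_KO against 16.8 and 17.6 FPKM in Ch25h_WT.

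Interferon gamma binds its receptor (Ifngr1 and Ifngr2) and acts through the kinases Jak1 and Jak2 on promoters that hold the gamma-activated site (GAS). The factor Irf1, made in response, binds the interferon-stimulated response element (ISRE), through which type I interferons also act. Guanylate-binding proteins are large GTPases that coat bacteria and parasite vacuoles and help to open them to cytosolic sensors. Immunity-related GTPases fall into effectors that load onto vacuoles (Iigp1, also called Irga6, and Ifi47, also called Irgd) and regulators that sit on the cell's own membranes and hold the effectors in check (Irgm1, Irgm2 and Igtp, also called Irgm3). AW112010 is annotated as a long noncoding RNA. It is induced in mouse macrophages by bacterial lipopolysaccharide, and in the mouse a protein translated from it has been tied to the output of interleukin 12.

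The promoters are shown as a description, and a link between their motifs and the differences of the members was not tested. RefSeq promoter windows of GRCm38.p6, running from 250 bases before to 50 bases after each start, were found for 9 of the 10 members, all but Iigp1. They were searched for GAS (TTCNNNGAA, its own reverse complement) and for the core of the ISRE (GAAA, any 2 bases, then GAAA, on either strand). The 120 bases just before the start are printed 5′ to 3′ on the strand of the gene, with matches to either motif in capitals. The windows are chr19:11050567-11050686 (minus strand) for AW112010, chr3:142620543-142620662 (plus) for Gbp2, chr3:142496814-142496933 (plus) for Gbp5, chr11:48871421-48871540 (minus) for Irgm1, chr11:58199436-58199555 (plus) for Igtp and chr11:58214857-58214976 (plus) for Irgm2. This build is later than the mm9 build of the deposited values, and no coordinate is carried between them.
AW112010: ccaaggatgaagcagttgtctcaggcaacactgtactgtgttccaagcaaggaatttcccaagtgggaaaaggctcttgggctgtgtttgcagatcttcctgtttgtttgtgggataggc
Gbp2: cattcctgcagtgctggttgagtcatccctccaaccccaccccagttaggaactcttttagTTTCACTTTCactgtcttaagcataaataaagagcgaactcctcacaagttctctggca
Gbp5: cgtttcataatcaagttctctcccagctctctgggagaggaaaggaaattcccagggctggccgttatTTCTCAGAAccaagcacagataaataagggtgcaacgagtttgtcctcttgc
Irgm1: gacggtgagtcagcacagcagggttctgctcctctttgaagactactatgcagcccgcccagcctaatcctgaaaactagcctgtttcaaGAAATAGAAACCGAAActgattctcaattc
Igtp: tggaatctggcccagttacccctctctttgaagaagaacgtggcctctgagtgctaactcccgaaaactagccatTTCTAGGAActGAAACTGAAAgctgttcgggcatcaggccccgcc
Irgm2: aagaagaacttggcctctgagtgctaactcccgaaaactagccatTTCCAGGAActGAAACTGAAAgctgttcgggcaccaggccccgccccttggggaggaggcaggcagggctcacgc

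An ISRE core lay in the 300-base windows of 7 of the 9 members (Gbp2, Gbp3, Gbp5, Gbp7, Igtp, Irgm1 and Irgm2), against 3.99% of all 27025 genes with a window. A GAS lay in 4 of the 9 (Gbp5, Gbp7, Igtp and Irgm2), against 9.55% of all genes. These 4 were also the members that held both motifs, against 0.614% of all genes. Of them, Gbp5 was higher in the Ch25h_KO libraries, while Gbp7, Igtp and Irgm2 were not. AW112010 and Ifi47 held neither, which says only that these letters are not in their windows. Ifi47 instead held a TATA box core (TATAAA, on either strand) that began 25 bases before the start. This core lay in 2 of the 9 members, Ifi47 and Gbp3, and in 15.7% of all genes.

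The regulators Igtp and Irgm2 lie next to each other on chromosome 11, and their promoters are near copies. When the Irgm2 stretch was shifted by 30 bases, 87 of 90 compared bases were identical to Igtp, and in both a GAS was followed closely by an ISRE core. Their transcripts overlap on the same strand in GENCODE vM21, so reads may be split between the pair. The ISRE core of Gbp2 began 59 bases before the start. That of Gbp5 began 165 bases before the start, outside the stretch printed above, and its nearer GAS began 52 bases before the start. The 2 matches of Irgm1 overlapped each other, as did those of Gbp3, while no GAS overlapped an ISRE core in any member.

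The members spanned a wide range of levels and differed from each other in direction and size. AW112010 and Gbp2 were the most abundant and stood apart between the groups by the widest margins, Gbp5 by less, and Ifi47 and Gbp3 by small margins. The regulators Igtp and Irgm1 overlapped between the groups, as did Gbp7, and Irgm2 was marginally lower in Ch25h_KO. Iigp1 was near the detection limit.

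**Figure D1:**
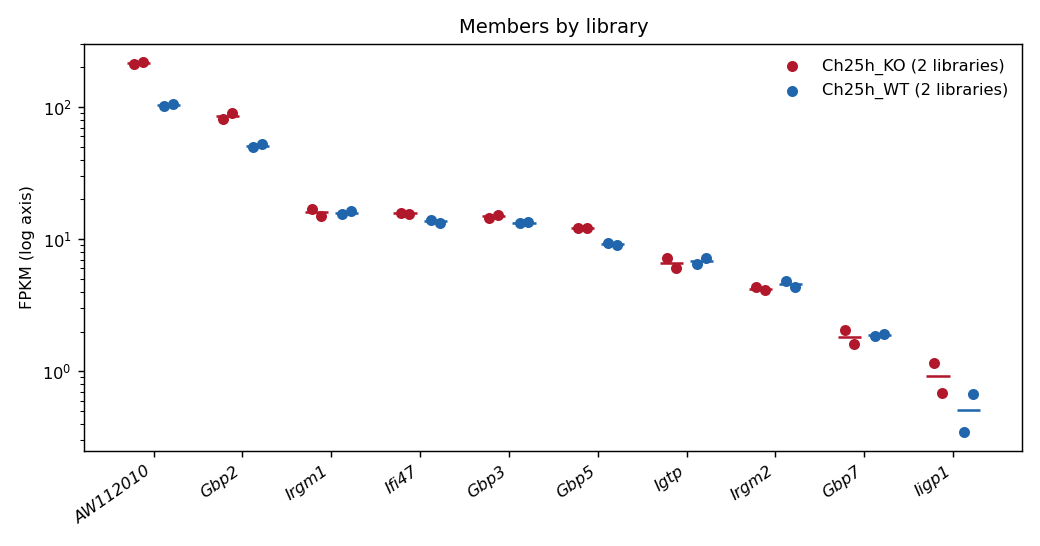
FPKM of the 10 members in each library on a log axis, ordered by the mean of the Ch25h_WT libraries. Points are libraries (Ch25h_KO red, left; Ch25h_WT blue, right) and lines are group means of 2 libraries. AW112010, Gbp2 and Gbp5 separate clearly by group, while Irgm1, Igtp and Gbp7 overlap.

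AW112010 was 211 and 218 FPKM in the Ch25h_KO libraries, against 102 and 105 FPKM in the Ch25h_WT libraries. Both Ch25h_KO libraries were above both Ch25h_WT libraries, with a gap far wider than the spread within either group (214 ± 4.69 against 104 ± 1.78 FPKM, SD, n = 2 each). The ratio of the means was 2.07. On the log2(FPKM + 1) scale, which understates changes of low genes, the difference was 1.04 (SE 0.054, from the limma fit across all loci). Of the 10074 loci that reached a mean of 1 FPKM and so entered the fit, 27 had a larger positive difference. In bulk RNA, more cells of a type and more RNA per cell cannot be told apart, for AW112010 as for the other genes.

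Among the guanylate-binding proteins, Gbp2 was 81.0 and 90.5 FPKM in the Ch25h_KO libraries, against 50.0 and 52.1 FPKM in the Ch25h_WT libraries. The groups did not overlap, and the Ch25h_KO libraries lay further from each other than the Ch25h_WT libraries did (85.8 ± 6.71 against 51.1 ± 1.44 FPKM). The ratio was 1.68 and the difference 0.74 on the log2(FPKM + 1) scale (SE 0.075). Gbp5, which also promotes assembly of the NLRP3 inflammasome in mouse macrophages, was 12.2 FPKM in both Ch25h_KO libraries, against 9.32 and 9.003 FPKM in the Ch25h_WT libraries. These groups did not overlap either, at a ratio of 1.34 and a difference of 0.38 (SE 0.053).

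Gbp3 was 14.6 and 15.3 FPKM in the Ch25h_KO libraries, against 13.3 and 13.4 FPKM in the Ch25h_WT libraries. Its groups did not overlap, but the means differed by only 11.8% (log2 difference 0.15, SE 0.055). Gbp7, which helps to deliver the NADPH oxidase to bacterial vacuoles in mouse macrophages, was 2.04 and 1.61 FPKM in the Ch25h_KO libraries, against 1.84 and 1.92 FPKM in the Ch25h_WT libraries. Here the Ch25h_KO libraries lay on either side of the Ch25h_WT libraries, and the log2 difference of -0.03 was smaller than its SE of 0.089.

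Gbp2 made up most of the signal of this family. It held 73.7% and 75.6% of the summed FPKM of the 4 guanylate-binding members in the Ch25h_KO libraries, and 67.1% and 68.2% in the Ch25h_WT libraries. That sum was 110 and 120 FPKM in the Ch25h_KO libraries and 74.5 and 76.4 FPKM in the Ch25h_WT libraries. The guanylate-binding proteins share similar sequence, so reads may be split between them and the level of a low member beside Gbp2 is uncertain.

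Among the effector immunity-related GTPases, the locus of Ifi47 was 15.8 and 15.6 FPKM in the Ch25h_KO libraries, against 13.9 and 13.3 FPKM in the Ch25h_WT libraries. The groups did not overlap, with means 15.5% apart (log2 difference 0.19, SE 0.055). The table gives this locus a second symbol, the olfactory receptor gene Olfr56, and the 2 genes cannot be told apart in its value. Iigp1 was 1.15 and 0.683 FPKM in the Ch25h_KO libraries, against 0.345 and 0.675 FPKM in the Ch25h_WT libraries. The lower Ch25h_KO library and the higher Ch25h_WT library were almost equal, and the difference of 0.34 on the log2(FPKM + 1) scale carries no SE because Iigp1 fell below the minimum of 1 FPKM for the fit. It was 0.17 without Ch25h_KO replicate 1, 0.18 without Ch25h_WT replicate 1 and 0.52 without Ch25h_KO replicate 2.

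The 3 regulators differed little. Irgm1, whose loss impairs autophagy and control of intracellular bacteria in mice, was 16.9 and 15.1 FPKM in the Ch25h_KO libraries, against 15.5 and 16.3 FPKM in the Ch25h_WT libraries. The Ch25h_KO libraries enclosed the Ch25h_WT libraries, and the log2 difference was 0.01 (SE 0.075). Igtp was 7.25 and 6.06 FPKM in the Ch25h_KO libraries, against 6.52 and 7.21 FPKM in the Ch25h_WT libraries, again enclosing them, with a difference of -0.04 (SE 0.098). Irgm2 was 4.35 and 4.09 FPKM in the Ch25h_KO libraries, against 4.83 and 4.37 FPKM in the Ch25h_WT libraries. The groups of Irgm2 did not overlap but nearly touched, and the difference of -0.10 (SE 0.068) was close to its error. The sign for Igtp turned when Ch25h_WT replicate 2 or Ch25h_KO replicate 2 was left out (to 0.02 without the first and 0.07 without the second), that for Irgm1 without either replicate 1 (-0.02 without Ch25h_WT replicate 1, -0.07 without Ch25h_KO replicate 1), and that for Gbp7 without Ch25h_KO replicate 2 (0.08). The difference of Irgm2 kept its sign but was -0.04 without Ch25h_WT replicate 1, -0.06 without Ch25h_KO replicate 2 and -0.16 without Ch25h_WT replicate 2.

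**Figure D2:**
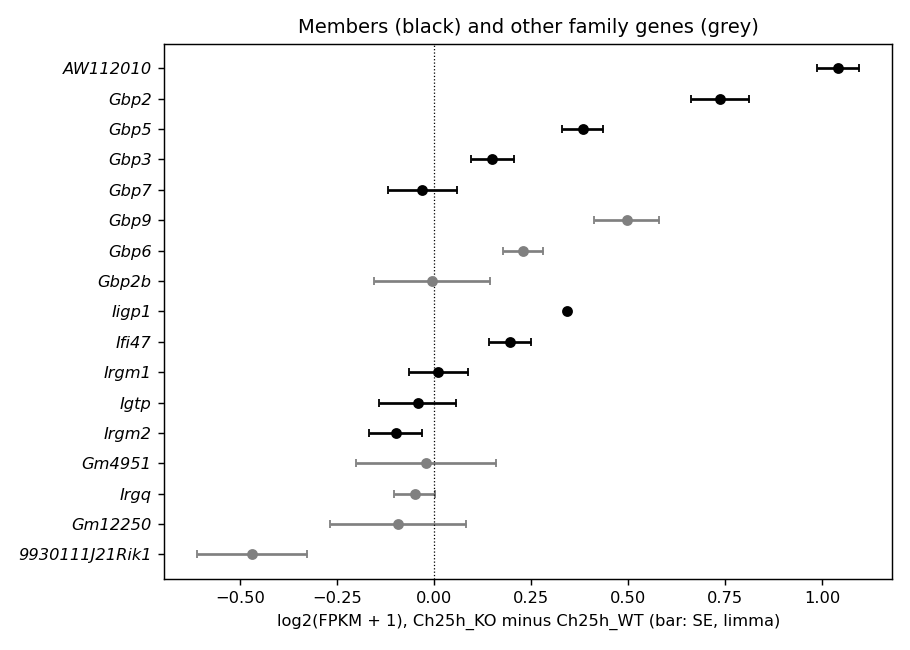
Difference in log2(FPKM + 1), Ch25h_KO minus Ch25h_WT, with bars for the SE of the limma fit, for the 10 members (black) and the other tested genes of the same families (grey). AW112010 (1.04) and Gbp2 (0.74) lie farthest to the right among members, and Irgm1, Igtp and Gbp7 lie within 1 SE of 0.

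In the order of levels, AW112010 came first in all 4 libraries and Gbp2 second. Irgm1, Ifi47 and Gbp3 followed. In the Ch25h_KO libraries the values of Irgm1 overlapped those of both Ifi47 and Gbp3, and in the Ch25h_WT libraries those of Ifi47 and Gbp3 overlapped each other. Gbp5, Igtp, Irgm2, Gbp7 and Iigp1 came after them in that order in every library. AW112010 lay at the 95.1th percentile of tested loci by mean level, Gbp2 at the 89.2th, Irgm1 at the 60.8th and Gbp7 at the 8.67th.

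Over all 10 members the groups did not overlap on the higher side in 6 (AW112010, Gbp2, Gbp5, Gbp3, Ifi47 and Iigp1) and on the lower side in 1 (Irgm2), and they overlapped in 3. For the 9 members that entered the fit the counts were 5, 1 and 3. Among all 10074 tested loci, 23.4% were higher and 30.3% lower with no overlap, and 46.3% overlapped. The median difference over the 10 members was 0.17, beside -0.01 over all tested loci. Of the 9 tested members, AW112010 alone passed a Benjamini-Hochberg adjusted p under 0.05 with limma, on the higher side, where 0.437% of tested loci passed (0.228% higher and 0.208% lower). An unadjusted p under 0.05 was reached by 5 members, all higher, where 20.9% of tested loci reached it (9.38% higher and 11.5% lower). Nothing is read from these counts, since the members were picked from this contrast. With any single library left out, or with the replicate number as a block, no member passed.

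Neighbouring members differed in the size and sign of their differences. On chromosome 3, Gbp5, Gbp7, Gbp3, Gbp2b and Gbp2 follow each other, and log2 differences along this row were 0.38, -0.03, 0.15, -0.01 and 0.74. Of the nearest genes above 1 FPKM on either side, the cytoskeletal adaptor gene Pdlim5 stood at -0.06 before the row and the general transcription factor gene Gtf2b at 0.07 after it. AW112010 lies among the Ms4a genes of chromosome 19. Of its 3 nearest listed genes on each side, Ms4a8a alone was above 1 FPKM, at 395 and 390 FPKM in the Ch25h_KO libraries against 331 and 322 FPKM in the Ch25h_WT libraries. Its groups did not overlap and its difference was 0.27, smaller than that of AW112010, and it did not pass with limma over all loci. The neighbours were chosen by position alone.

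**Figure D3:**
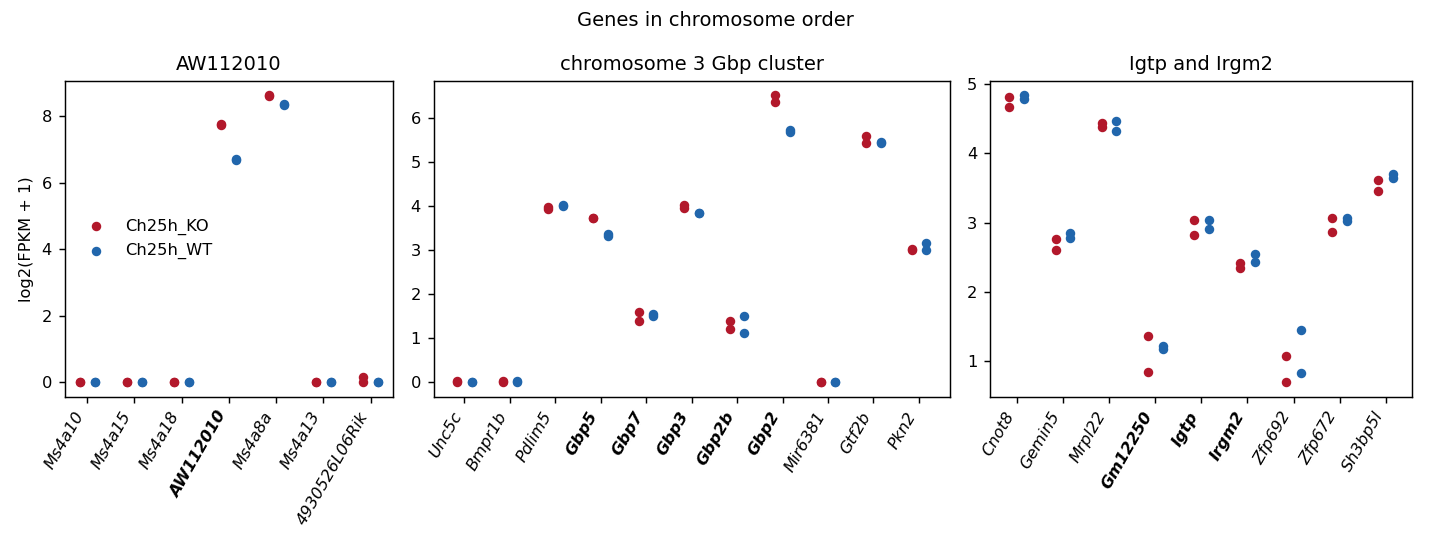
Levels as log2(FPKM + 1) of genes in chromosome order around AW112010, across the chromosome 3 Gbp row and around Igtp and Irgm2 (bold: the genes at the centre; other labels: the 3 nearest listed genes on each side). Points are libraries, Ch25h_KO red on the left and Ch25h_WT blue on the right. Gbp2, Gbp5 and AW112010 separate by group, while the groups of Igtp overlap and those of Irgm2 nearly touch.

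The other genes of both families were mostly near the detection limit. Of 7 further guanylate-binding loci, 3 entered the fit, and 0 passed with limma over all loci (2 at an unadjusted p under 0.05, both higher, where 9.38% of all tested loci were). Gbp9 was 1.22 and 1.53 FPKM in the Ch25h_KO libraries, against 0.630 and 0.734 FPKM in the Ch25h_WT libraries, with limma adjusted p = 0.09997. Its mean was 1.37 FPKM in Ch25h_KO and 0.682 FPKM in Ch25h_WT. Gbp9 thus entered the fit only through the group where it was high, and its place in the count is no support. Gbp6 was 3.36 and 3.43 FPKM in the Ch25h_KO libraries, against 2.77 and 2.73 FPKM in the Ch25h_WT libraries, with limma adjusted p = 0.125. The groups of both genes did not overlap, while those of Gbp2b overlapped, at 1.64 and 1.32 FPKM in Ch25h_KO against 1.84 and 1.17 FPKM in Ch25h_WT (limma adjusted p = 0.990).

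Low values fall on whole steps, each worth 1 fragment, so that many low loci can be read as counts. Gbp9 came out at 24 and 28 fragments in the Ch25h_KO libraries, against 15 and 14 in the Ch25h_WT libraries. Gbp4 came out at 27 and 25 fragments in Ch25h_KO, against 20 and 15 in Ch25h_WT. Gbp8, Gbp10 and Gbp11 gave between 0 and 4 fragments in any library, so a difference in them was not detectable at this depth. The more abundant of the 2 Tgtp2 loci, which encodes an effector immunity-related GTPase that has a near-identical copy in Tgtp1, gave 17 and 10 fragments in Ch25h_KO, against 14 and 14 in Ch25h_WT.

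**Figure D4:**
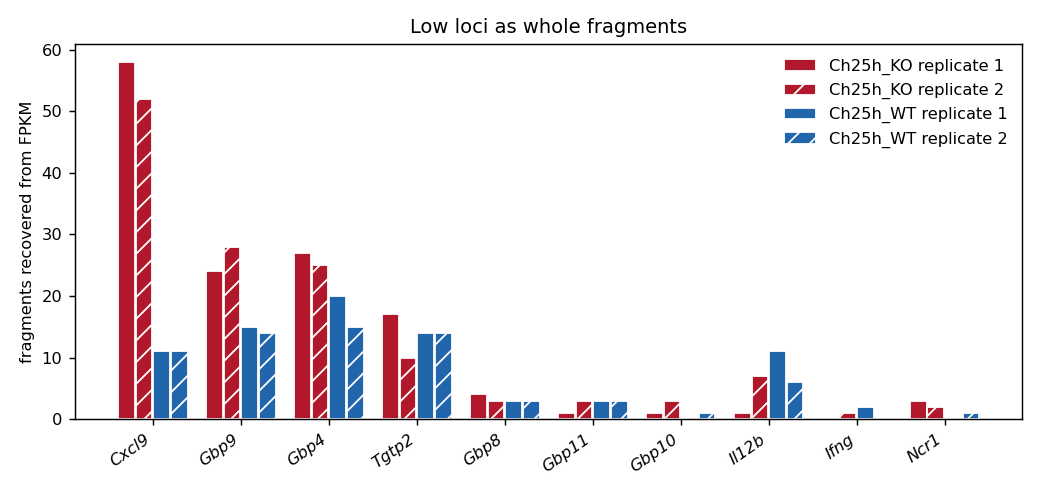
Fragments per library recovered from the FPKM of low loci, with Ch25h_KO in red and Ch25h_WT in blue (replicate 2 hatched), not corrected for depth. Cxcl9 shows 58 and 52 fragments in Ch25h_KO against 11 and 11 in Ch25h_WT, and Ifng shows at most 2 in any library.

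Of 15 further loci of immunity-related, very large and Mx GTPases, 4 entered the fit and 0 passed with limma over all loci. Mx1 and Mx2, listed also as type I interferon targets, did not enter the fit. Of the 4, 1 reached an unadjusted limma p under 0.05, on the lower side, where 11.5% of all tested loci did. This was the locus shared by 9930111J21Rik1, 9930111J21Rik2 and Psme2b, at 1.17 and 1.55 FPKM in the Ch25h_KO libraries against 1.91 and 2.66 FPKM in the Ch25h_WT libraries (limma adjusted p = 0.181). Irgq, a family member not known for interferon induction, differed by -0.05 (limma adjusted p = 0.622). Gm12250, also called Irgb10, which helps guanylate-binding proteins to expose bacterial lipopolysaccharide in mouse cells, differed by -0.09 (limma adjusted p = 0.793). Of the 4 tested loci, 0 were higher and 2 lower with no overlap, beside 23.4% and 30.3% of all tested loci.

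The ligand itself was almost absent. Ifng gave 0 and 1 fragments in the Ch25h_KO libraries and 2 and 0 in the Ch25h_WT libraries, so no difference could be detected. Markers of NK and T cells, which make interferon gamma, were low, with 5 of 18 at a mean of at least 1 FPKM. Their summed level was 15.4 and 17.9 FPKM in Ch25h_KO and 13.96 and 14.7 FPKM in Ch25h_WT, and the highest were Il2rb, at 2.98 and 3.37 FPKM in Ch25h_KO against 2.77 and 3.21 FPKM in Ch25h_WT, and Lck, at 2.38 and 2.69 FPKM in Ch25h_KO against 2.31 and 2.82 FPKM in Ch25h_WT. The NK receptor gene Ncr1 gave 3 and 2 fragments in Ch25h_KO and 0 and 1 in Ch25h_WT. Of the 18 markers, most of them under 1 FPKM, 13 were higher and 5 lower by the sign of the difference. Among the lower ones, Tbx21 was 0.558 and 0.637 FPKM in Ch25h_KO against 0.950 and 0.651 FPKM in Ch25h_WT.

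Receptor and signalling genes had a median difference near that of all loci. Of 17 tested, 0 passed with limma over all loci, and 3 had an unadjusted p under 0.05 (2 higher and 1 lower, where 20.9% of all loci had one). The median was 0.00, beside -0.01 over all tested loci. Of the 17, 6 were higher and 4 lower with no overlap, where 23.4% and 30.3% of all tested loci were. Stat3, which carries the interleukin 6 and interleukin 10 signal, was 97.7 and 102 FPKM in Ch25h_KO against 88.2 and 87.9 FPKM in Ch25h_WT (limma adjusted p = 0.185). Cebpb, a factor of inflammatory gene expression, was 689 and 640 FPKM in Ch25h_KO against 590 and 556 FPKM in Ch25h_WT (limma adjusted p = 0.193). Irf8, a myeloid factor that acts with Irf1, was 30.9 and 30.8 FPKM in Ch25h_KO against 34.8 and 33.7 FPKM in Ch25h_WT (limma adjusted p = 0.229). Irf1, named here after its values were seen because it binds the ISRE, was 42.0 and 43.6 FPKM in Ch25h_KO against 44.4 and 45.1 FPKM in Ch25h_WT (log2 difference -0.06).

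Among other known targets of interferon gamma, 2 of 29 tested loci rose with limma over all loci and 0 fell. Cxcl9, a chemokine for T cells that depends closely on interferon gamma, gave 58 and 52 fragments in the Ch25h_KO libraries against 11 and 11 in the Ch25h_WT libraries (log2 difference 1.09, SE 0.058, limma adjusted p = 0.0117). Its mean was 1.84 FPKM in Ch25h_KO and 0.330 FPKM in Ch25h_WT. Cxcl9 thus reached the minimum of 1 FPKM only through the group where it was high, so its call is no independent support. It did not reach the alternative minimum of 5 FPKM. Nos2, the inducible nitric oxide synthase, was 70.8 and 72.0 FPKM in Ch25h_KO against 36.3 and 36.5 FPKM in Ch25h_WT (limma adjusted p = 0.0117). Tapbp, the peptide-loading factor of MHC class I, was 132 and 130 FPKM in Ch25h_KO against 105 and 103 FPKM in Ch25h_WT, and did not pass (limma adjusted p = 0.097). The median difference of the 29 was 0.15, and 17 were higher and 4 lower with no overlap. An unadjusted limma p under 0.05 was reached by 14 on the higher side and 1 on the lower, where 9.38% and 11.5% of all tested loci reached it. Over all tested loci, 0.437% passed, 23.4% were higher and 30.3% lower with no overlap, and the median was -0.01.

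Of 23 tested targets of type I interferon, 1 rose with limma over all loci and 0 fell. It was Zbp1, which senses Z-form RNA and DNA, at 22.0 and 21.6 FPKM in Ch25h_KO against 13.4 and 13.5 FPKM in Ch25h_WT (limma adjusted p = 0.0345). Their median difference was 0.17, and 13 were higher and 1 lower with no overlap, beside the same 0.437% passing, 23.4% higher and 30.3% lower over all tested loci. An unadjusted limma p under 0.05 was reached by 6 on the higher side and 1 on the lower, beside 9.38% and 11.5% of all tested loci. Irf7, which amplifies type I interferon, was 38.6 and 38.5 FPKM in Ch25h_KO against 25.9 and 29.0 FPKM in Ch25h_WT (limma adjusted p = 0.097), and the ubiquitin-like Isg15 was 67.2 and 66.3 FPKM in Ch25h_KO against 41.0 and 51.6 FPKM in Ch25h_WT (limma adjusted p = 0.125). Whether the 2 lists of targets differ was not tested. The calls of Cxcl9, Nos2 and Zbp1 were each lost with any single library left out and with the replicate number as a block, and that of Zbp1 also with a pseudocount of 0.1 or no filter on low values.

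Delivery of these GTPases to vacuoles needs the conjugation of LC3-like proteins in mouse cells. Of 20 tested genes of that machinery and its adaptors, 0 passed with limma over all loci, and the median difference was 0.01. An unadjusted limma p under 0.05 was reached by 4, where 20.9% of all tested loci had one. Of the 20, 7 were higher and 5 lower with no overlap, beside 23.4% and 30.3% of all tested loci. The adaptor gene Sqstm1 was 947 and 954 FPKM in Ch25h_KO against 819 and 803 FPKM in Ch25h_WT (limma adjusted p = 0.126). Gabarapl1, an LC3-like protein, was 58.8 and 59.3 FPKM in Ch25h_KO against 67.1 and 68.3 FPKM in Ch25h_WT (limma adjusted p = 0.157), and the kinase gene Ulk1, which starts autophagy, was 8.16 and 8.91 FPKM in Ch25h_KO against 7.41 and 6.81 FPKM in Ch25h_WT (limma adjusted p = 0.187).

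Genes of the inflammasome that guanylate-binding proteins serve, and cytokines linked to AW112010, had a median difference of -0.11. Of 12 tested, 0 passed with limma over all loci. An unadjusted limma p under 0.05 was reached by 4 (2 higher and 2 lower), where 20.9% of all tested loci had one. Of the 12, 3 were higher and 7 lower with no overlap, where 23.4% and 30.3% of all tested loci were. Lgals3 (galectin-3), which marks broken vacuoles, was 196 and 198 FPKM in Ch25h_KO against 270 and 284 FPKM in Ch25h_WT (limma adjusted p = 0.0656). Il1b was 314 and 305 FPKM in Ch25h_KO against 211 and 227 FPKM in Ch25h_WT (limma adjusted p = 0.078), and Il10, an anti-inflammatory cytokine, was 50.8 and 55.8 FPKM in Ch25h_KO against 34.6 and 39.5 FPKM in Ch25h_WT (limma adjusted p = 0.104). Il12b, the shared subunit of interleukin 12 and interleukin 23, gave 1 and 7 fragments in Ch25h_KO and 11 and 6 in Ch25h_WT, so its groups overlapped.

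**Figure D5:**
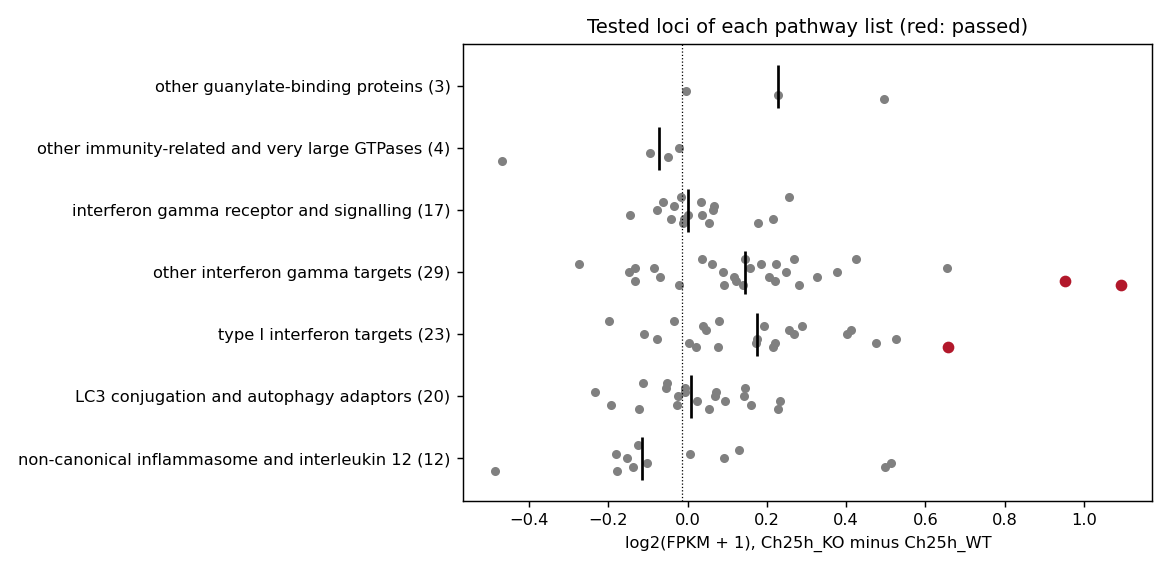
Difference in log2(FPKM + 1), Ch25h_KO minus Ch25h_WT, of the tested loci of 7 gene lists, with the number tested in brackets. Black lines are list medians, the dotted line is the median of all tested loci (-0.01), and red points passed limma at an adjusted p under 0.05. The interferon gamma and type I targets have medians of 0.15 and 0.17, while receptor and signalling genes centre near 0.

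Of the listed markers of other cells, Ly6c2 alone passed with limma over all loci. The summed level of 8 listed neutrophil markers was 164 FPKM in both Ch25h_KO libraries, against 112 and 121 FPKM in Ch25h_WT, led by S100a8 (99.0 and 98.7 FPKM in Ch25h_KO against 56.3 and 66.6 FPKM in Ch25h_WT) and Csf3r, while the granule genes Elane, Mpo and Ngp gave 0 to 3 fragments. Of these 8 markers 4 were higher and 4 lower by the sign of the difference, and S100a8 and Csf3r made up most of the sum. Among the lower ones, Cxcr2 was 0.492 and 0.428 FPKM in Ch25h_KO against 0.507 and 0.665 FPKM in Ch25h_WT, and Camp was 0.880 and 0.471 FPKM in Ch25h_KO against 0.906 and 1.36 FPKM in Ch25h_WT. The 7 listed mast cell markers summed to 156 and 159 FPKM in Ch25h_KO, against 223 and 229 FPKM in Ch25h_WT, led by Cma1 and Tpsb2. Of 5 listed monocyte markers, Ly6c2, whose sequence is close to that of Ly6c1, rose with limma over all loci, at 14.3 and 17.3 FPKM in Ch25h_KO against 3.12 and 2.70 FPKM in Ch25h_WT, while the groups of F13a1 overlapped (log2 difference 0.04) and 2 of the 5 were lower with no overlap. Fibroblast and mesothelial markers were low, with a sum of 4.11 and 3.23 FPKM in Ch25h_KO and 1.31 and 1.07 FPKM in Ch25h_WT, the highest being Dcn and Col1a2. Dendritic cell markers, led by Ccr7 and Zbtb46, summed to 26.3 and 25.6 FPKM in Ch25h_KO and 24.9 and 24.9 FPKM in Ch25h_WT. Resident large peritoneal macrophage markers, led by Prg4 and Selp, summed to 2014 and 2078 FPKM in Ch25h_KO and 1967 and 2031 FPKM in Ch25h_WT. Of these 8 markers, 3 were higher and 3 lower with no overlap, beside 23.4% and 30.3% of all tested loci. Icam2 was 207 and 213 FPKM in Ch25h_KO against 156 and 159 FPKM in Ch25h_WT. Naip1 was 8.40 and 8.23 FPKM in Ch25h_KO against 10.4 and 10.1 FPKM in Ch25h_WT. The part of these cells in the levels of AW112010, Gbp2 and Gbp5 was not tested.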

How the data were processed

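The authors deposited 1 value for each locus in each library, taken here as FPKM made with Cufflinks from the locus identifiers and the values, since the header names no unit. Per the submitters' processing notes, bcl2fastq, TopHat2 2.0.14 and Cufflinks 2.2.1 were used with the mouse build mm9. The sources used here do not give the annotation, strandedness, filters or scaling. Lines of the same locus were joined (24192 lines, 23735 loci), and 0 per-sample columns were left out. Differences were fitted with limma 3.58.1 (R 4.3.3) on log2(FPKM + 1) for the 10074 loci that reached a mean of 1 FPKM, on genotype alone, and p-values were Benjamini-Hochberg adjusted over all of them. The fit was tested on simulated data.

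Members and lists were chosen with earlier results of these data known. Named genes are the members, Ch25h and Apoe, every gene past the threshold and the 3 smallest p of each pathway list, the 2 highest genes of each marker list, and the 5 loci (mean of at least 5 FPKM, no predicted genes or short RNAs) nearest the members' mean profile. Others were named after their values were seen, namely Ifng, Irf1, Il12b, Ncr1, Ly6c2, Cxcr2, Camp, the neighbours and the low loci read as fragments. So were Emr1, Tbx21, Blk, Icam2, Naip1, Mx1 and Mx2. Some results that the rule would name are not reported here.

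Relative depth came from the most common ratio of values under 0.5 FPKM between libraries. Of 1617 loci with a mean under 0.2 FPKM and a value above 0 in at least 3 libraries, 93.9% gave whole fragments in all 4 libraries (tolerance 0.02 fragments, at most 60 fragments, smallest whole set). Depth in fragments used GENCODE vM21 transcript lengths of 267 such loci. Chromosomes and gene order came from RefSeq (GRCm38.p6), for names and order only, and promoter sequences from the RefSeq table of the same build. Proteins were not analysed here. Alternatives were other pseudocounts, filters, scalings and models of the spread, the replicate number as a block, each library left out, and a shorter promoter window.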

Additional observations from a re-analysis of the deposited data

How the results depend on the processing

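The median difference of the members (0.17) moved by less than the spread between replicates under all 12 alternatives run. AW112010 ranged from 1.02 to 1.06, Gbp2 from 0.66 to 0.81 and Gbp5 from 0.36 to 0.41 over these alternatives, and none of the 3 changed sign. Iigp1 ranged from 0.17 to 0.75. The count of loci past the threshold, 44, was 29 with a pseudocount of 0.5, 18 with no filter on low values, 175 when loci had to reach a mean of 5 FPKM, and 786 with limma's trend and robust options. The count within the pathway lists, 3, was 6 with the minimum of 5 FPKM and 21 with the trend and robust options. Both of these settings also called Gbp2 and Gbp5. The replicate numbers are not said to pair libraries, and same-numbered libraries did not deviate together (correlation of deviations 0.012 across loci). With the replicate number as a block, limma called 6 loci in all and 0 in the pathway lists, where 33 had an unadjusted p under 0.05. With a library left out, the lone library of its group being assumed to vary like the others, the count lay between 16 and 21, and it was 0 in the pathway lists each time (25 to 30 at an unadjusted p under 0.05). In the 150 bases before the start, a TATA box core lay in 1 member. Differences in loci of a few fragments were beyond the depth.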

Other observations

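The loci whose profile over the 4 libraries lay nearest the mean profile of the members, by Euclidean distance of centred log2(FPKM + 1) among 6875 loci, were Card9, Tgif1, Bloc1s3, Bcl2a1a and Rbm42. Card9, an adaptor of fungal recognition receptors, was 16.99 and 16.2 FPKM in the Ch25h_KO libraries, against 13.5 and 13.9 FPKM in the Ch25h_WT libraries, at a distance of 0.015. Tgif1, a transcriptional repressor, was 110 and 103 FPKM in Ch25h_KO, against 87.4 and 88.7 FPKM in Ch25h_WT, at a distance of 0.022. Over 4 libraries many loci can match a profile, and Bcl2a1a has near-identical copies.

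The 294 tested loci with an ISRE core in the promoter, members left out, had a median difference of 0.00, with 27.2% higher and 25.5% lower with no overlap. The 651 with a GAS had a median of -0.01, with 169 higher and 170 lower with no overlap. Of the 40 with both motifs, 14 were higher and 8 lower with no overlap, and the median was -0.03. Among all tested loci, 23.4% were higher and 30.3% lower.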
